A study of Mus musculus with 17 samples.

Results

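The FGF experiment on cultured mouse astrocytes comprised 11 RNA-seq libraries that fell into 2 replicate sets. The first set held replicates 1 and 2 of PBS, FGF2 and FGF10, which made 6 libraries. The second set held replicates 3 and 4 of PBS and FGF2 and replicate 3 of FGF10, which made 5 libraries, among 17 libraries in the whole series. The sets were drawn by replicate number because gene expression had been seen to separate them, so the members were chosen by their expression values across all genes. Differences between the sets are therefore given below as a description with no test. The name under which the sets were proposed was a proliferative against a mature culture state, and this name was checked against the data below.

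All 11 cultures held astrocytes immunopanned from the brains of C57BL/6 mice at postnatal day 2, without the olfactory bulbs and cerebellum. CD45+ and O4+ cells were first removed on antibody-coated plates, which take out microglia, macrophages and oligodendrocyte precursor cells, and astrocytes were then retained with an antibody against HepaCAM, an astrocyte adhesion protein. Cells grew in a serum-free medium with the growth factor HB-EGF and N-acetyl cysteine. A growth factor, FGF2 or FGF10, at 50 ng/ml, or its solvent PBS, was added at day 2 in vitro and kept for 7 days. The other 6 libraries of the series came from cultures that received SAG at 500 ng/ml, an activator of the Hedgehog transducer Smoothened, or its solvent DMSO, at day 3 in vitro for 3 days. The study's methods call the replicates biological and state that samples of different groups were pooled for sequencing and handled side by side. Neither the labels nor the methods name a plating day, litter or astrocyte preparation for each replicate. For FGF2 the methods state 3 replicates and the labels name 4, of which none was left out.

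Astrocytes arise from radial glia and still divide in the first postnatal weeks, and they then leave the cell cycle while they acquire glutamate uptake, gap junction coupling and secreted lipoproteins. Growth factors that act through receptor tyrosine kinases, among them HB-EGF and the FGFs, drive the ERK kinase cascade, which induces the transcription factor gene *Egr1* and the cyclin gene *Ccnd1*. Cyclin D1 frees the E2F factors that switch on DNA replication genes, and at the end of the cycle the MuvB complex, with B-MYB and FOXM1, switches on the genes of mitosis through the CHR element and the NF-Y sites, CCAAT boxes, of their promoters.

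In all, 834 genes were called between the sets, and no measure of the libraries themselves passed a test between them. Total gene counts were 17481727 to 55550088 in the first set and 32001914 to 49134217 in the second (two-sided exact permutation test, p = 0.955, n = 6 and 5, smallest possible p = 0.00216). The number of genes detected, the share of mitochondrial reads and the share of reads in the top 100 genes also gave no difference past the threshold over 6 measures (exact permutation tests, adjusted p = 0.416 to 0.955). Unlike total counts, these measures come from the gene values that chose the sets, so their tests are not independent. With 6 and 5 libraries the tests cannot show that the sets are alike. Reads were sparse for their number, since 8.53% to 26.9% of the genes that averaged 5 to 10 CPM (read counts scaled to a common library size) had no read in a given library, with the highest shares in PBS replicate 1 at 26.9%, FGF2 replicate 4 at 25.2% and PBS replicate 4 at 23.2%. On log2 CPM, libraries of the same set and treatment correlated at 0.775 to 0.807 across genes, and libraries of the same treatment in different sets at 0.752 to 0.792. These genes are not independent replicates, and each range holds only 5 to 10 pairs.

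Of 18433 genes tested with treatment as a covariate, 447 were called higher in the second set (2.42%) and 387 lower (2.1%), where called means an adjusted p under 0.05 in edgeR's quasi-likelihood fit and serves here only to count and sort. CPM did not overlap between the sets for 379 genes that were higher (2.06%) and 321 that were lower (1.74%). Both conditions held for 284 higher and 217 lower genes. The shares of 2.42% and 2.1% are the base rates for the counts called in each list below, and no list count was tested against them. These rates cover genes of all levels, many with too few reads to be called, and were not matched to the level of each list. Much of the count rested on FGF10 replicate 3, the only FGF10 library of the second set. Without it, 458 of 15660 genes tested were called, and DESeq2's Wald test with all libraries called 1279 higher and 1856 lower. Just inside the threshold stood *Dst*, which encodes a cytoskeletal linker, with a log2 difference of −0.58, and just outside it stood *Dbx2*, a homeobox gene, at 0.94. The median difference over all genes was −0.05, and over the 9047 genes with a mean of at least 10 CPM it was 0.01.

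**Figure D1:**
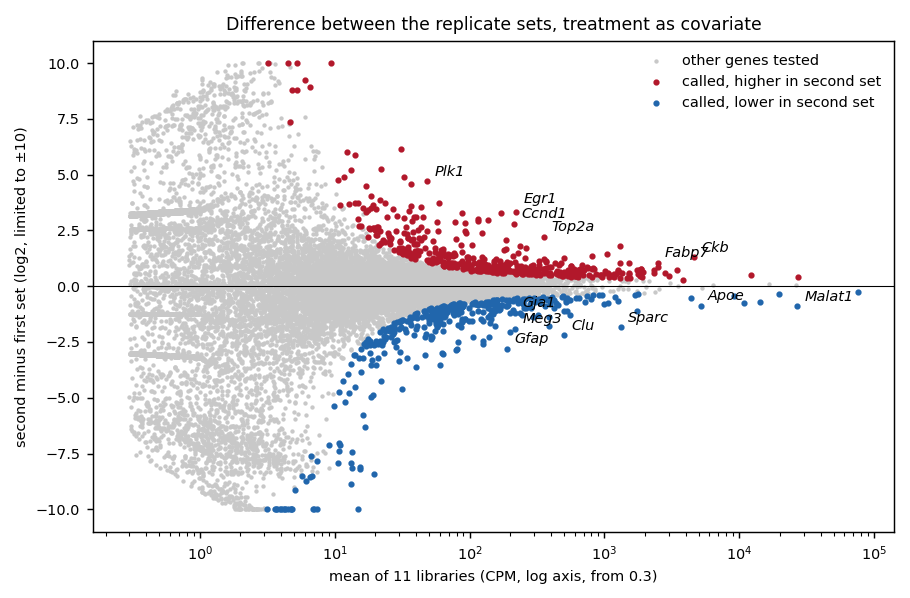
Log2 difference between the second and the first set (vertical axis, held within 10 in either direction) against mean CPM on a log axis, with 1 point per gene and genes called at an adjusted p under 0.05 in color. Called genes lie on both sides, 447 higher and 387 lower, and the cloud of all genes is centered near 0, with a median of −0.05.

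The genes of mitosis formed the group with the largest median difference among the 38 gene lists examined. Of 59 genes that act in chromosome condensation, the spindle, the checkpoint and cytokinesis, 43 were called higher in the second set and none lower, with no overlap between the sets for 43, and the list's median difference was 2.46 on the log2 scale. The count called was 26 without FGF10 replicate 3 and 41 without PBS replicate 1, and the median ran from 2.34 to 2.62 when any 1 library was left out. In bulk RNA, more dividing cells and more of these transcripts per dividing cell cannot be told apart.

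Promoters are shown because sequence is a feature that the choice of the sets did not use. The 4 printed were picked to show the elements and a promoter without them. *Top2a* encodes topoisomerase IIα, which untangles sister chromatids, *Ncapd2* encodes a condensin subunit, *Mcm6* a subunit of the replicative helicase, and *Apoe* the main astrocyte apolipoprotein, which was lower in the second set. The 250 bases before the first listed start of each gene, from RefSeq on GRCm38.p6, are written in the direction of the gene. Capitals mark 3 elements, searched on both strands. The CCAAT box reads CCAAT, with ATTGG as its complement, and the CHR reads TTTGAA, with TTCAAA as its complement. The E2F core was taken as the letters TTCGCGC (complement GCGCGAA) and also as the letters TTGGCGC (complement GCGCCAA). The E2F cores of opposite strands can overlap, and ATTGG overlaps TTGGCGC where they meet.
Top2a, chr11:99024190-99024439, minus strand: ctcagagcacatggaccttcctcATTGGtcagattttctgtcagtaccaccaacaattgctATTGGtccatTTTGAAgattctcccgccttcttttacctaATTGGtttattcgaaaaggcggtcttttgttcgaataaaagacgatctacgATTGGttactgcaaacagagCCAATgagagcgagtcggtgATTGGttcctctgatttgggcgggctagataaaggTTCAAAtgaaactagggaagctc
Ncapd2, chr6:125191587-125191836, minus strand: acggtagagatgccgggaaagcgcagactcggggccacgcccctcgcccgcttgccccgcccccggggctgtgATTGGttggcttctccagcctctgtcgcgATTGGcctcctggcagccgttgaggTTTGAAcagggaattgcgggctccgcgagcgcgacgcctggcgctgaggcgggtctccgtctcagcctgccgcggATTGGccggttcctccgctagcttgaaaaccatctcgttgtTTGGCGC
Mcm6, chr1:128359706-128359955, minus strand: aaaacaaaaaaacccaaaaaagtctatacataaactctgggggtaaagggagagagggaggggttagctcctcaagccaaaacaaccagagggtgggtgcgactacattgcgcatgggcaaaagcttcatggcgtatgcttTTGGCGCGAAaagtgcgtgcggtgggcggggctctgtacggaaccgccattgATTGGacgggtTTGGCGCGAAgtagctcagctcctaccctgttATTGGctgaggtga
Apoe, chr7:19699189-19699438, minus strand: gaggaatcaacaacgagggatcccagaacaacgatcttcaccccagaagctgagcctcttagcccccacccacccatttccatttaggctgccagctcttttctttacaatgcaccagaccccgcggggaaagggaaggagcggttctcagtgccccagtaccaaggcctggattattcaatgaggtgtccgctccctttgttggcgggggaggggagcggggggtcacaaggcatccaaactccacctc

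The *Top2a* promoter held 6 CCAAT boxes and 2 CHR elements, 1 of which began 23 bases before the start. In *Ncapd2* there were 3 CCAAT boxes, 1 CHR and 1 E2F core. *Mcm6* had 2 CCAAT boxes, no CHR and 4 E2F matches that overlap in pairs, and *Apoe* had none of these letters in this window. Other members of the lists held fewer of them. *Cenpf*, a mitosis gene for a kinetochore protein, had 2 CCAAT boxes with neither a CHR nor an E2F core, and *Lig1*, a replication gene called higher, had none of the 3 elements. Among the 49 of 59 mitosis genes with a promoter in the table, 71.4% had a CCAAT box, 34.7% a CHR, 30.6% both and 12.2% an E2F core, so most held no CHR letters in this window. Over 27025 promoters of the same length the first 3 shares were 34.5%, 16.3% and 5.73%. For the 41 of 53 DNA replication genes that matched, 63.4% had a CCAAT box, 12.2% a CHR and 19.5% an E2F core, against 3.23% of all promoters for the last. The 36 of 45 mature astrocyte genes that matched had these at 41.7%, 2.78% and 5.56%. These are matches of letters over whole lists, not measured binding, and called genes were not compared with other members.

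*Top2a* transcripts were at 53 to 209 CPM in the first set, with a median of 129, and at 589, 590, 791, 595 and 529 CPM in the second, in the order PBS 3, PBS 4, FGF2 3, FGF2 4, FGF10 3 that is kept throughout. Every second-set library lay above every first-set library, and the difference was 2.21 ± 0.16 (log2, SE). In this fit the SE rests on the trend over all genes, not on each gene's own scatter. *Mki67*, which encodes the Ki-67 coat protein of mitotic chromosomes, had 7.17 to 58.6 CPM (median 16.6) in the first set and 139, 156, 182, 90.1 and 165 CPM in the second. *Ube2c*, the ubiquitin-conjugating enzyme of the anaphase-promoting complex, was at 2.74 to 26.1 CPM (median 21.1) against 130, 147, 218, 187 and 175 CPM. For *Cdc20*, the activator of that complex, the first set held 0 to 24.7 CPM (median 7.45) and the second 99.8, 99.3, 153, 172 and 73.7 CPM. None of these genes overlapped between the sets, whatever the treatment. *Plk1*, a kinase of spindle assembly, was at 0.423 to 17.4 CPM (median 4.6) against 79.4, 122, 109, 94.3 and 89.1 CPM. *Cdk1*, the mitotic kinase, had 10.7 to 107 CPM (median 28.5) against 158, 167, 222, 139 and 111 CPM, and *Ncapd2* 78.7 to 154 CPM (median 113) against 356, 282, 465, 455 and 388 CPM. The gap between the sets was narrow for *Cdk1*, whose highest first-set value was 107 CPM and whose lowest second-set value was 111 CPM.

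DNA replication genes did not follow the mitosis genes in number. Of 53 helicase subunits, polymerases, clamp loaders and nucleotide enzymes, 3 were called higher and none lower, with a median of 0.54. In direction, 45 of the 53 were higher in the second set, where 47.6% of all genes were. The sign was the same in all 3 treatments for 17. Their summed level, with all 17 libraries normalized together, was 1080 to 1220 CPM in the first set and 1360 to 2670 CPM in the second. The count was 1 without PBS replicate 3, FGF2 replicate 2, FGF2 replicate 3 or FGF10 replicate 3, and the median ran from 0.24 to 0.79 when any 1 library was left out. The 3 genes called were *Lig1*, the ligase that joins lagging-strand fragments (1.07 ± 0.24), *Mcm6* (1.48 ± 0.45) and *Mcm5*, another helicase subunit (1.11 ± 0.35). *Lig1* was at 42.9 to 94.6 CPM (median 61.8) in the first set and 125, 122, 207, 99.0 and 117 CPM in the second, without overlap, while the *Mcm5* and *Mcm6* values of the sets overlapped. *Pcna*, the sliding clamp, was at 14.3 to 46.7 CPM (median 24.3) against 43.2, 31.9, 31.9, 32.0 and 17.3 CPM and was not called (0.20 ± 0.50). *Mcm2* had 15 to 59.3 CPM (median 48.1) against 54.7, 38.1, 123, 19 and 53.4 CPM, and its difference of 0.36 ± 0.32 became −0.19 without FGF2 replicate 3. FGF2 replicate 3 carried the highest *Mcm2* value, and the mean level of the whole replication list was also highest there, at 5.06 on the log2(CPM + 1) scale against 3.73 to 4.12 in the other second-set libraries.

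Around the G1 phase, 2 of 20 genes were called, both higher, beside 2.42% of all genes. *Cdk4*, the kinase partner of D cyclins, was at 94.1 to 150 CPM (median 112) against 210, 200, 253, 206 and 182 CPM, and *Ccnd1* is described with the growth signals below. None of 7 genes for cyclin-dependent kinase inhibitors was called by edgeR, and the differences were 0.00 ± 0.25 for *Cdkn1a* (p21) and −0.34 ± 0.14 for *Cdkn1b* (p27). *Cdkn1b* was nevertheless without overlap, at 503 to 727 CPM against 430 to 483 CPM. Among 21 chromatin and high mobility group genes, 10 were called higher and none lower, with a median of 0.55, and without FGF10 replicate 3 the count was 4. *H2ax*, a histone variant of the DNA damage response, differed by 1.86 ± 0.24, *Hmgb2*, a chromatin protein of dividing cells, by 1.10 ± 0.17, and *Lmnb1*, lamin B1 of the nuclear envelope, by 1.06 ± 0.15. The proliferative name therefore rests mainly on mitosis and chromatin genes, with *Cdk4* and *Ccnd1* also called higher. Of 53 replication genes, 45 had higher values but 3 were called, or 1 when any of the 4 libraries named above was left out. No inhibitor was called, and the sets are called first and second here.

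**Figure D2:**
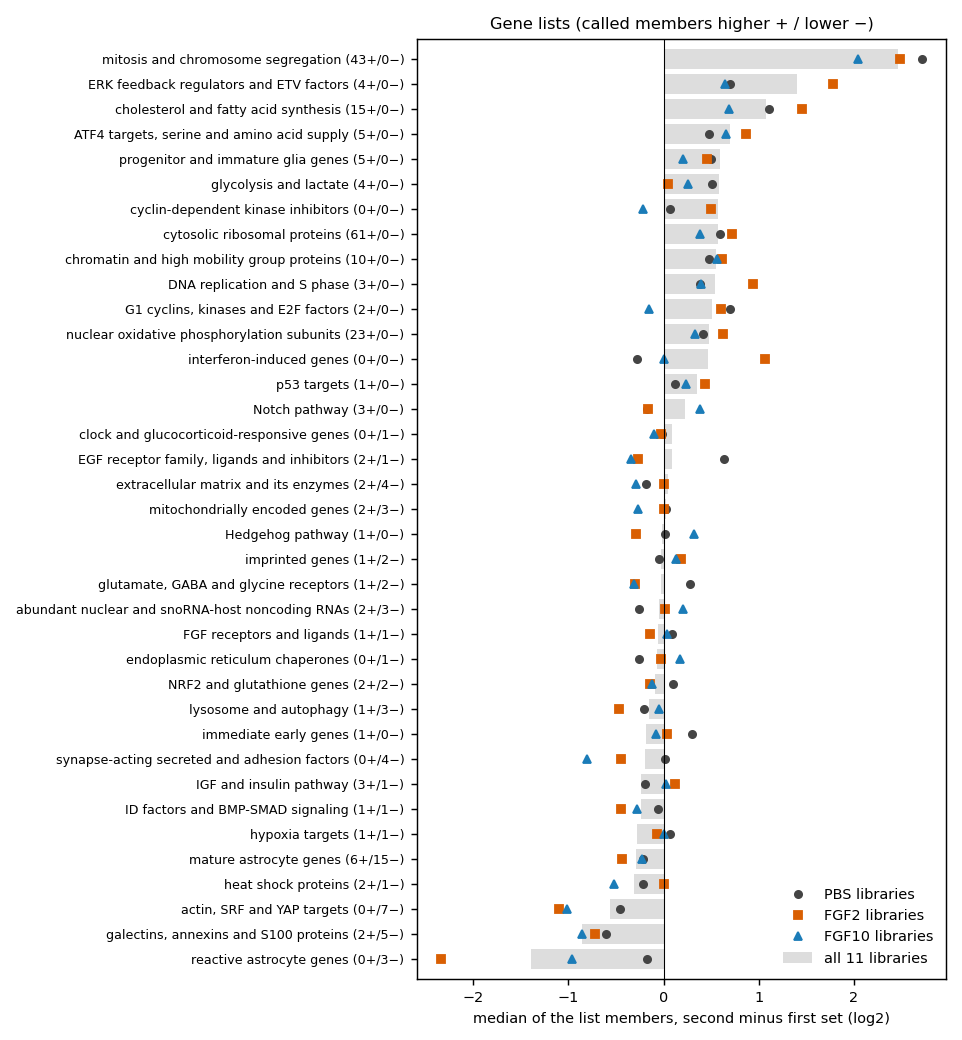
Median log2 difference between the second and the first set for each gene list (bars, all 11 libraries) with the median within PBS, FGF2 and FGF10 libraries as dots and the numbers of genes called higher and lower beside each name. The mitosis list reaches 2.46, with 2.72 in PBS, 2.48 in FGF2 and 2.04 in FGF10.

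Some genes that receptor tyrosine kinase signals induce were higher in the second set, in the PBS libraries as well. *Egr1*, an immediate early transcription factor gene, was at 18.7 to 73.0 CPM (median 42.2) in the first set and at 213, 555, 849, 273 and 303 CPM in the second, a difference of 3.34 ± 0.19. *Ccnd1*, which encodes cyclin D1, was at 23.7 to 85.6 CPM (median 50.1) against 197, 304, 1018, 338 and 179 CPM, a difference of 2.80 ± 0.19. The sets did not overlap for either gene, and FGF2 replicate 3 was the highest library for both. Of 22 immediate early genes tested, *Egr1* was the only gene called, beside 2.42% of all genes called higher. In this list 12 genes had lower values in the second set, and the median of −0.18 ran from −0.26 to 0.52 when any 1 library was left out. Among 14 feedback regulators of ERK and ETV factors, 4 were called higher and none lower, with a median of 1.40 and 2 called without FGF10 replicate 3. *Dusp6*, the ERK phosphatase, was at 12.6 to 38.8 CPM (median 22.1) against 65.6, 96.7, 170, 77.0 and 45.5 CPM. *Etv5*, an ETS factor downstream of FGF receptors, was at 11.3 to 57.6 CPM (median 34.0) against 70.1, 82.0, 150, 93.4 and 102 CPM. *Etv4* (1.90 ± 0.40) and *Spry4*, an inhibitor of the cascade (2.59 ± 0.81), were called with overlapping values. *Etv5* and *Spry4* were not called without FGF10 replicate 3, nor *Spry4* without most other single libraries.

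The receptors showed smaller differences. *Egfr*, which encodes the receptor of the HB-EGF in the medium, was at 127 to 249 CPM (median 185) in the first set and 286, 307, 306, 324 and 397 CPM in the second (0.77 ± 0.17). *Erbb4*, a related receptor gene, was lower, at 64.6 to 116 CPM against 50.9, 59.2, 41.2, 13.8 and 25.4 CPM (−1.32 ± 0.30). In the list of 12 FGF receptors and ligands, *Fgfr1* was called lower (−0.64 ± 0.20) and *Fgfrl1*, a receptor without a kinase domain, higher (1.02 ± 0.25). Of 14 genes of the IGF and insulin pathway, 3 were called higher and 1 lower. *Igfbp4*, a secreted IGF-binding protein, was at 18.1 to 58.8 CPM (median 34.4) against 212, 171, 444, 276 and 183 CPM, and *Igfbp2* at 63.1 to 86.6 CPM (median 78.9) against 236, 240, 497, 316 and 312 CPM. The IGF receptor gene *Igf1r* was the lower member (−0.52 ± 0.16). Without FGF10 replicate 3 none of *Egfr*, *Erbb4*, *Fgfr1*, *Fgfrl1* and *Igf1r* was called, and *Fgfr1* and *Igf1r* also lost the call without several other single libraries, FGF2 replicates 1 and 4 among them. In the Notch list *Hes5*, *Hes1* and *Dll3* were called higher among 19 genes (1 without PBS replicate 4), beside 2.42% of all genes. *Hes5*, a Notch target of progenitors, was at 198 to 298 CPM (median 245) against 568, 439, 352, 730 and 519 CPM.

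Genes for protein and lipid synthesis were higher in the second set. Of 77 cytosolic ribosomal protein genes, 61 were called higher and none lower, with a median of 0.57, and leaving out any 1 library gave 49 to 61. *Rps26*, a small-subunit protein gene, was at 2324 to 2926 CPM (median 2742) in the first set and 4217, 4355, 4826, 4578 and 4067 CPM in the second. *Rps2* differed by 1.33 ± 0.12, *Rpl12* by 1.24 ± 0.14 and *Rpl13a* by 1.61 ± 0.19, each without overlap. Ribosomal protein genes and some glycolysis genes have many near-identical pseudogene copies, and how reads that match several copies were assigned is not given in the sources used here, so single values of these families are uncertain.

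Of 35 genes of cholesterol and fatty acid synthesis, 15 were called higher and none lower, with a median of 1.08, and 10 were called without FGF10 replicate 3. *Scd1*, which encodes the desaturase that makes oleate, was at 19.8 to 49.6 CPM (median 22.7) against 160, 197, 269, 243 and 226 CPM. *Fasn*, fatty acid synthase, was at 87.9 to 145 CPM (median 130) against 306, 308, 459, 377 and 319 CPM, and *Hmgcs1*, an early enzyme of the mevalonate pathway, at 191 to 268 CPM (median 256) against 454, 537, 681, 516 and 409 CPM. Among 64 nuclear genes for oxidative phosphorylation, 23 were called higher and none lower, with a median of 0.48, and 14 were called without FGF10 replicate 3. *Atp5b*, a catalytic subunit of ATP synthase, was at 347 to 468 CPM (median 396) against 722, 782, 937, 659 and 658 CPM.

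Mitochondrially encoded genes differed both ways, with 2 of 13 higher and 3 lower and a median of 0.03. *mt-Nd1* and *mt-Co1*, subunits of complexes I and IV, differed by 0.49 ± 0.07 and −0.53 ± 0.08. In glycolysis, 4 of 19 genes were called, all higher (2 without FGF2 replicate 2), with *Pkm*, pyruvate kinase, at 199 to 427 CPM (median 336) against 523, 496, 829, 785 and 663 CPM. ATF4 targets for serine and amino acid supply gave 5 of 20 called, all higher, with a median of 0.70. Of these, *Shmt2*, the mitochondrial serine hydroxymethyltransferase, was at 7.32 to 26.1 CPM (median 16.6) against 101, 69.8, 100, 90.4 and 46.9 CPM, and *Asns*, asparagine synthetase, was at 1.91 to 8 CPM (median 7.61) against 31.9, 26.1, 44.8, 32.5 and 56.6 CPM. *Ckb*, brain-type creatine kinase, was at 2539 to 2952 CPM (median 2788) against 6336, 6746, 7285, 7561 and 6102 CPM. *Txn1*, thioredoxin, was at 546 to 717 CPM (median 582) against 1797, 1680, 2983, 2763 and 1588 CPM. For *Txn1* both FGF2 libraries lay above the other second-set libraries.

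Mature astrocyte genes were split between the directions, so the mature part of the proposed name describes only some of this list. Of 44 tested, 15 were called lower and 6 higher in the second set, with a median of −0.29, and without FGF10 replicate 3 the counts were 11 and 3. *Apoe* was at 5651 to 7106 CPM (median 6675) in the first set and 4417, 3753, 2041, 3228 and 4366 CPM in the second (−0.88 ± 0.08). *Clu*, the secreted chaperone clusterin, was at 720 to 842 CPM (median 775) against 247, 217, 79.0, 112 and 245 CPM (−2.19 ± 0.15). *Cst3*, the protease inhibitor cystatin C, was at 1974 to 2516 CPM (median 2316) against 1212, 1175, 653, 843 and 1435 CPM. All 3 genes encode secreted proteins, their sets did not overlap, and FGF2 replicate 3 was the lowest library for each. *Cpe*, which encodes a peptide-processing carboxypeptidase, was at 410 to 622 CPM (median 584) against 204, 201, 161, 99.4 and 182 CPM. *Gja1*, which encodes connexin 43 of astrocyte gap junctions, was at 234 to 324 CPM (median 278) against 198, 156, 58.1, 55.1 and 215 CPM.

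The glutamate handling genes differed less. *Glul*, glutamine synthetase, was at 1306 to 1422 CPM (median 1394) against 933, 965, 1054, 1117 and 926 CPM (−0.47 ± 0.11). *Slc1a2*, the glutamate transporter GLT-1, differed by −0.56 ± 0.15 with overlapping values, and *Slc1a3*, the transporter GLAST, was not called (−0.23 ± 0.11). The water channel gene *Aqp4* was called lower (−0.82 ± 0.22) with overlap, and *Kcnj10*, the potassium channel Kir4.1, was not called (−0.20 ± 0.23). Neither *Aqp4* nor *Slc1a2* was called without FGF10 replicate 3, nor *Slc1a2* without PBS replicate 4, nor *Aqp4* without FGF2 replicate 2, 3 or 4. *Aldh1l1*, a folate enzyme and broad astrocyte marker, was higher, at 165 to 243 CPM (median 214) against 358, 406, 319, 431 and 301 CPM. *Acsbg1*, a fatty acyl-CoA synthetase gene, was at 58.1 to 138 CPM (median 96.5) against 237, 267, 400, 366 and 207 CPM. *Sox9*, the glial transcription factor gene, was lower, at 1401 to 1708 CPM (median 1475) against 957, 924, 824, 990 and 975 CPM.

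Of 19 progenitor and immature glia genes, 5 were called higher and none lower, with a median of 0.59 and 3 called without FGF10 replicate 3. *Fabp7*, the radial glial lipid-binding protein, was at 1512 to 1761 CPM (median 1638) against 2954, 3174, 3815, 4849 and 2701 CPM, and *Nes*, the intermediate filament nestin, at 45.5 to 118 CPM (median 101) against 164, 285, 381, 222 and 120 CPM. *Tnc*, the matrix protein tenascin C, was at 0 to 14.4 CPM (median 10.7) against 50.6, 17.4, 111, 49.5 and 38.8 CPM. *Egfr*, given above, was also called. *Vim* was not called (0.23 ± 0.11), and *Sox2*, a stem cell factor gene, was not either (−0.29).

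**Figure D3:**
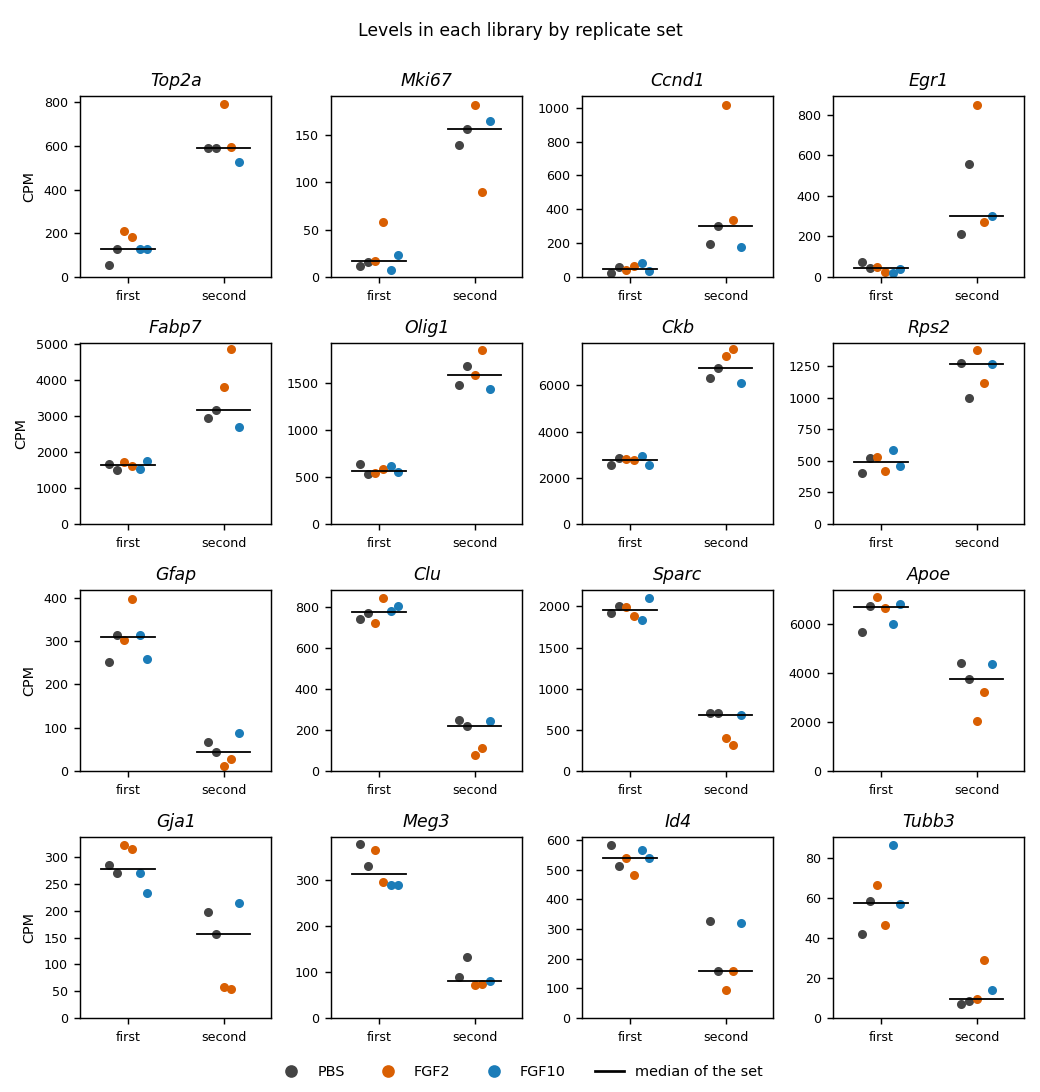
CPM of selected genes in each of the 11 libraries on linear axes that start at 0, by set and colored by treatment, with a black line at each set's median. *Top2a* lies at 53 to 209 CPM in the first set and 529 to 791 CPM in the second, and *Gfap* at 253 to 398 CPM and 10.8 to 87.5 CPM.

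Genes of reactive astrocytes, matrix and contractile cells made up part of the lower side. *Gfap*, the astrocyte intermediate filament that is induced on injury, was at 253 to 398 CPM (median 309) in the first set and 67.2, 45.0, 10.8, 28.8 and 87.5 CPM in the second (−2.80 ± 0.20). Of 27 reactive astrocyte genes tested, 3 were called lower and none higher, and 5 had a set with no library above 3 counts. The list's median was −1.39, or −1.90 with those genes set at the 3-count bound, and ran from −2.59 to −1.11 when any 1 library was left out. Within treatments it was −0.17 in PBS, −2.34 in FGF2 and −0.96 in FGF10, which were not tested against each other, and PBS replicate 1 was the lowest first-set library for this list. The other called members were *S1pr3*, a sphingosine phosphate receptor gene, and *Serpina3n*, a protease inhibitor gene, and 1 member was called without FGF10 replicate 3.

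*Sparc*, a secreted matrix glycoprotein that limits synapse formation, was at 1832 to 2105 CPM (median 1957) against 703, 707, 395, 311 and 678 CPM (−1.85 ± 0.12). The list of 34 matrix genes gave 4 lower, among them *Timp2*, an inhibitor of matrix proteases (−1.29 ± 0.14), and 2 higher, with a median of 0.05 (−0.29 to 0.24 with 1 library left out) and 2 lower without FGF10 replicate 3. Of 19 actin, SRF and YAP target genes, 7 were called lower and none higher, with a median of −0.56. *Acta2*, smooth muscle actin, was at 138 to 312 CPM (median 231) against 69.2, 81.0, 54.7, 40.9 and 75.6 CPM, and *Myl9*, a myosin light chain, at 71.6 to 99.8 CPM (median 79.4) against 15.9, 25.9, 8.12, 24.0 and 8.86 CPM. Galectins, annexins and S100 proteins were divided, with 5 of 16 lower and 2 higher, or 1 higher without PBS replicate 4, FGF2 replicate 1, 2 or 3, or FGF10 replicate 3. *Lgals1*, galectin 1, was at 19.1 to 64.0 CPM (median 30.3) against 298, 217, 544, 291 and 325 CPM, whereas *Ahnak*, a scaffold protein that binds S100A10, was at 101 to 153 CPM (median 134) against 29.3, 33.0, 16.9, 23 and 16.7 CPM.

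Several noncoding and imprinted transcripts stood among the leading genes. *Malat1*, a nuclear noncoding RNA, was at 27872 to 39176 CPM (median 33261) against 19134, 24439, 17914, 16939 and 14621 CPM. *Meg3*, an imprinted noncoding RNA, was at 289 to 378 CPM (median 315) against 88.5, 132, 72.9, 73.6 and 80.4 CPM. *Plagl1*, an imprinted zinc finger gene, was at 68.8 to 144 CPM (median 103) against 16.6, 18.2, 9.84, 9.36 and 13.2 CPM, and *Grb10*, an imprinted adaptor of insulin and IGF receptors, was at 3.63 to 18.9 CPM (median 13.8) against 55.1, 69.1, 58.7, 81.8 and 76.6 CPM. None of these 4 overlapped. The list of 17 imprinted genes as a whole had a median of −0.03, with *Grb10* the member called higher and *Meg3* and *Plagl1* the members called lower. *Neat1*, a paraspeckle RNA, was lower (−1.70 ± 0.29), and *Snhg6* and *Snhg8*, hosts of small nucleolar RNAs, were higher (0.90 ± 0.17 for *Snhg6*) among 17 such transcripts. The other genes that led the lower side by p were *Drp2*, *Fxyd1*, *Nrbp2* and *P4ha3*. *P4ha3*, a collagen prolyl hydroxylase gene, was at 150 to 227 CPM (median 211) against 38.5, 37.6, 24.8, 16.2 and 70.4 CPM.

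Several lists had few genes called. No interferon-induced gene of 18 was called by edgeR, and the list's median of 0.47 became −0.28 without FGF2 replicate 3. The lists for endoplasmic reticulum chaperones, NRF2, lysosome, Hedgehog, clock, p53, hypoxia and heat shock genes had medians of −0.31 to 0.35 with at most 4 genes called in each. Among 18 synapse-acting factors 4 were called lower, including *Nrxn3*, a presynaptic adhesion gene (−2.29 ± 0.36). Of 23 transmitter receptor genes, *Grm5*, the glutamate receptor of immature astrocytes, was at 25.5 to 67.1 CPM (median 38.5) against 130, 131, 210, 110 and 141 CPM, and *Gabrb1*, a GABA-A receptor subunit, was at 114 to 214 CPM (median 175) against 58.2, 31.1, 24.2, 24.7 and 36.4 CPM. *Id4*, an inhibitor of bHLH factors, was lower, at 481 to 585 CPM (median 539) against 328, 160, 95.3, 158 and 322 CPM, and *Id3*, of the same family, was higher (0.85 ± 0.21).

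Markers of other cell types also moved with the sets. All 12 astrocyte markers were detected in both sets, and their summed level was 6050 to 6890 CPM in the first and 4490 to 4880 CPM in the second, with 6 lower and 1 higher. The 17 ependymal markers summed to 397 to 731 CPM against 83.0 to 238 CPM, with 5 lower and none higher. *Foxj1*, the regulator of motile cilia, was at 299 to 441 CPM (median 311) against 168, 204, 114, 78.5 and 136 CPM, while *Dnah9*, a dynein arm of motile cilia, had no read in any second-set library. Of 15 neuronal markers tested, 4 were lower, and their sum was 993 to 1240 CPM against 813 to 980 CPM. *Gad2*, a GABA-synthesizing enzyme, was at 28.7 to 45.2 CPM (median 33.0) against 3.94, 0, 0, 0 and 0 CPM, and *Tubb3*, neuronal tubulin, at 41.9 to 86.6 CPM (median 57.8) against 6.94, 8.65, 9.33, 29.0 and 14.1 CPM. *Slc17a7* and *Neurod6* were too low to be tested.

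Oligodendrocyte precursor markers summed to 1640 to 2050 CPM in the first set and 3190 to 4430 CPM in the second, a difference carried by *Olig1* and *Olig2*. These encode bHLH factors of the oligodendrocyte lineage that immature astrocytes also express, and *Olig1* was at 536 to 641 CPM (median 568) against 1479, 1678, 1583, 1853 and 1429 CPM. The defining precursor genes *Pdgfra* (−1.19 ± 0.43), *Cspg4* (0.21 ± 0.81) and *Sox10* (−0.27 ± 0.24) were not called, and *C1ql1* was called lower (−1.86). Mature oligodendrocyte markers summed to 585 to 708 CPM against 247 to 599 CPM, and *Mbp*, which encodes myelin basic protein, was called lower. Pericyte and smooth muscle markers summed to 196 to 463 CPM against 54.4 to 123 CPM, with *Acta2*, *Tagln* and *Pdgfrb* lower. The summed fibroblast markers went the other way, from 59.2 to 120 CPM to 191 to 426 CPM, and much of the second-set sum was *Fbln2*. This matrix fibulin was at 14.7 to 48.4 CPM (median 24.3) against 165, 206, 377, 223 and 129 CPM. Of 8 fibroblast markers tested, it was the only one called and the only one without overlap. Microglial markers stayed at 2.61 to 34.1 CPM and 4.98 to 28 CPM in sum, endothelial markers at 1.25 to 19.6 CPM and 0 to 9 CPM, and choroid plexus markers at 41.9 to 75.2 CPM and 37.9 to 66.4 CPM, with none called by edgeR. Of 6 red blood cell markers 1 was tested, and the sum was at most 9.34 CPM. The part that these cells play in the astrocyte, contractile and matrix results was not tested.

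The mitosis list had a positive median within each treatment, which was smallest in FGF10. The median difference was 2.72 in PBS, 2.48 in FGF2 and 2.04 in FGF10, and 57 of 59 members had the same sign in all 3 treatments. Ribosomal protein genes gave 0.59, 0.72 and 0.38, cholesterol and fatty acid genes 1.11, 1.45 and 0.69, and mature astrocyte genes −0.22, −0.44 and −0.23. Fits to 1 treatment alone had 3 or 4 libraries and called 11 genes in PBS, 24 in FGF2 and 162 in FGF10, where the second set had 1 library. Fits to PBS and FGF2 libraries together called 390.

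With the set as a term, the growth factors called few genes. FGF2 against PBS gave 1 gene, *Ccnd1*, higher by 0.99 on the log2 scale (adjusted p = 0.0295 by the Benjamini-Hochberg method in edgeR's quasi-likelihood fit), with 650 genes at an unadjusted p under 0.05. *Ccnd1* was at 43.3, 65.0, 1020 and 338 CPM in FGF2 replicates 1 to 4 and at 23.7, 56.9, 197 and 304 CPM in PBS. No gene was called without PBS replicate 3, PBS replicate 4, FGF2 replicate 3 or FGF10 replicate 3, and up to 8 were without other single libraries. FGF10 against PBS gave 2 genes, *Car8*, a carbonic anhydrase-related gene, and *Malat1*, which was lower by 0.39 (adjusted p = 0.000493, edgeR), with 563 genes at an unadjusted p under 0.05. Without the set term edgeR called no gene for either factor, with 556 and 487 genes at an unadjusted p under 0.05, while limma voom with the set term called 14 and 31 and DESeq2 1366 and 1390. The *Car8* values were 0 to 37.2 CPM in PBS and 0.114, 0 and 0 CPM in FGF10, so that its call rested on zeros.

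The FGF2 effect itself differed between the sets for 25 genes (0.136% of those tested), 3 in the positive and 22 in the negative direction, by edgeR's interaction test. At an unadjusted p under 0.05 the test gave 858 genes. Its contrast is not the difference that chose the sets. It was fitted to the same 11 libraries and genes, however, so it is not independent support. *Gja1* was at 286 and 271 CPM in PBS and 324 and 315 CPM in FGF2 in the first set. In the second set it was at 198 and 156 CPM in PBS and 58.1 and 55.1 CPM in FGF2. The FGF2 libraries lay above PBS in the first set and below it in the second, and the effects differed by −1.84 ± 0.39 (log2, adjusted p = 0.00459, edgeR). It was called in 17 of 18 alternatives, including each of the 11 that left out a library, and the exception was the fit to PBS and FGF2 libraries only, with an adjusted p of 0.124. *Gfap* differed by −1.81 (adjusted p = 0.0101, edgeR), with 253 and 315 CPM in PBS and 303 and 398 CPM in FGF2 in the first set, and 67.2 and 45.0 CPM against 10.8 and 28.8 CPM in the second. *Clu* differed by −1.33 (adjusted p = 0.0251, edgeR) and *Fxyd1*, which encodes a regulator of the sodium pump, by −1.93 (adjusted p = 0.0435, edgeR). These were called in 10, 10 and 7 of 18 alternatives for *Gfap*, *Clu* and *Fxyd1*, with adjusted p up to 0.906, 0.536 and 1.

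Most of the 25 genes had few reads in some libraries. In 14 of the 25 genes a PBS or FGF2 group of a set had no library above 3 counts, and 11 genes had none. *Mbp* was at 35.4 and 65.3 CPM in PBS and 110 and 110 CPM in FGF2 in the first set. In the second set *Mbp* was at 50.0 and 10.9 CPM in PBS and at 0 in both FGF2 libraries, which puts it at least 449-fold lower against a floor of 3 counts per library (adjusted p = 4.12e-34 within the second set and 6.62e-31 for the interaction, edgeR). *Phkg1*, a phosphorylase kinase subunit, was at 17 and 32 CPM in PBS and 0.021 and 0 CPM in FGF2 there. *Ccn2*, a YAP target that encodes a matrix-associated growth factor, was at 8.69 and 4.90 CPM in PBS and 0 in both FGF2 libraries of the second set, a level at which zeros are too common for an absence to be read. These floors cover counting error only, and PCR copies are not independent molecules. *Plk1* went the other way by level, since FGF2 libraries of the first set had 4.43 and 17.4 CPM against 0.423 and 0.697 CPM in PBS, with no such gap in the second set (interaction −4.26 ± 0.79, adjusted p = 0.000171, edgeR).

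The count of 25 depended on single libraries. It was 14 without PBS replicate 1, 203 without PBS replicate 2, 62 without PBS replicate 3, 16 without FGF2 replicate 2, 71 without FGF2 replicate 3, 42 without FGF2 replicate 4 and 8 without FGF10 replicate 3. With the study's own threshold it was 14. For FGF10, edgeR's interaction test called 16 genes (0.0868%), led by *Ammecr1l*, *Wnk2* and *Armc8* (adjusted p = 0.0011, 0.0011 and 0.00124, edgeR), with 735 at an unadjusted p under 0.05. *Plk1* was among them (adjusted p = 0.0213, edgeR). The second set held a single FGF10 library, with 0.884, 0 and 0 CPM for the leading genes, so that library alone stands for FGF10 there and is assumed to vary like the other groups. A difference between FGF10 cultures of the sets cannot be told apart from a deviation of that library. The count was 163 without PBS replicate 2, 57 without PBS replicate 3 and 30 without FGF10 replicate 1.

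Within the second set, FGF2 against PBS called 60 genes (0.326%), 10 higher and 50 lower, in the fit of all 11 libraries, and within the first set 6 (0.0326%), all higher. Both comparisons use their own PBS libraries. Of the 60, 39 had no group at the floor, 7 higher and 32 lower. Among the lower genes were 4 of the 44 mature astrocyte genes: *Apoe* (−0.63 ± 0.15), *Clu* (−1.28 ± 0.23), *Cst3* (−0.67 ± 0.18) and *Gja1* (−1.64 ± 0.28), with adjusted p of 0.00991, 2.53e-05, 0.0443 and 1.2e-05 by edgeR. *Sparc* was lower by 1.00 and *Id4* by 0.94. The higher genes included *Ccnd1* (1.44 ± 0.28, adjusted p = 0.00039, edgeR), *Ccnd2*, another D cyclin gene (1.02 ± 0.21), and *Txn1* (0.73 ± 0.19). Both cyclin genes were far higher in FGF2 replicate 3 than in FGF2 replicate 4. *Ccnd1* was at 1020 and 338 CPM there against 197 and 304 CPM in PBS, and *Ccnd2* at 1290 and 581 CPM against 423 and 499 CPM. Of these 9 named genes, the difference itself passed the interaction test for *Clu* and *Gja1*, and for *Apoe* the adjusted p of the interaction was 0.0927.

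The median FGF2 effect over the mature astrocyte list was 0.04 in the first set and −0.34 in the second. Of the 6 genes called in the first set, 4 were mitosis genes, among them *Plk1* and *Top2a* (1.13 ± 0.24, adjusted p = 0.0128, edgeR). The mean mitosis level there was 2.56 and 3.15 on the log2(CPM + 1) scale in PBS, 3.35 and 3.42 in FGF2 and 3.48 and 3.44 in FGF10, with PBS replicate 1 the lowest. The count in the second set was 96 without PBS replicate 3, 110 without FGF2 replicate 3 and 15 without FGF10 replicate 3. That in the first set was 206 without PBS replicate 2, 18 without FGF2 replicate 1, 10 without FGF2 replicate 2 and 1 without FGF10 replicate 3. Fits to the 4 PBS and FGF2 libraries of a set, a choice made after seeing the data, called no gene by edgeR in either set, with 664 and 406 genes at an unadjusted p under 0.05 in the second and the first. In the second-set fit *Gja1* differed by −1.65, *Clu* by −1.28 and *Ccnd1* by 1.43, each with an adjusted p of 0.924 by edgeR.

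**Figure D4:**
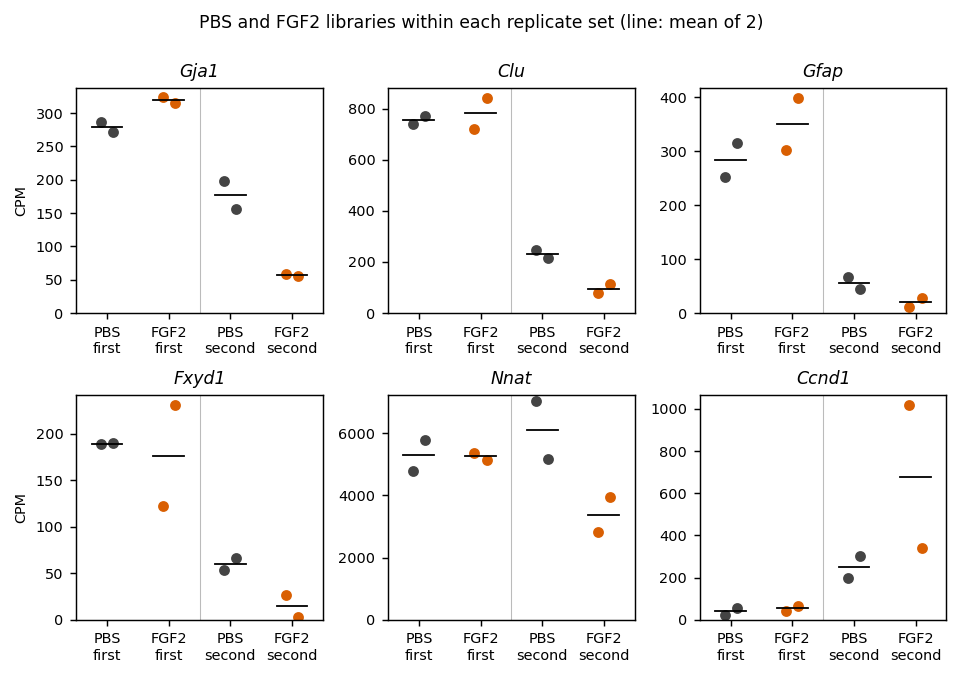
CPM of 6 genes in the PBS and FGF2 libraries of each set, with 1 point per library and a horizontal line at the mean of the 2 libraries of each group. *Gja1* goes from 198 and 156 CPM in PBS to 58.1 and 55.1 CPM in FGF2 in the second set, and from 286 and 271 CPM to 324 and 315 CPM in the first.

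The DMSO and SAG libraries, which the choice of the sets did not use, give the levels of the same genes in cultures of another age and treatment. All 17 libraries were normalized together, and the values are a description. The mean mitosis level on the log2(CPM + 1) scale was 2.7 to 3.16 in DMSO and 3.33 to 3.51 in SAG, within or near the 2.56 to 3.48 of the first set and below the 5.49 to 6.00 of the second. *Top2a* was at 54.5 to 141 CPM in DMSO and 96.6 to 221 CPM in SAG. *Ccnd1*, by contrast, was at 34.6 to 68.2 CPM in DMSO and 177 to 316 CPM in SAG, beside 23.7 to 85.6 CPM in the first set and 179 to 1018 CPM in the second. *Clu* was at 436 to 598 CPM in DMSO and 239 to 280 CPM in SAG, and *Gfap* at 139 to 199 CPM and 25.1 to 60.2 CPM. For *Clu* and *Gfap* the DMSO libraries thus lay between the sets and the SAG libraries in or next to the range of the second set. On a scale over all called genes that puts the mean of the first set at 0 and that of the second at 1, DMSO libraries lay at 0.18 to 0.20 and SAG libraries at 0.54 to 0.55. The second-set libraries themselves lay at 0.86 to 1.15 and the first-set libraries at −0.11 to 0.06. Their places near 1 and 0 follow from how the scale and its genes were chosen, and are not a further result. Age in culture and treatment differ between the DMSO and SAG libraries and the FGF experiment, and their parts cannot be told apart.

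**Figure D5:**
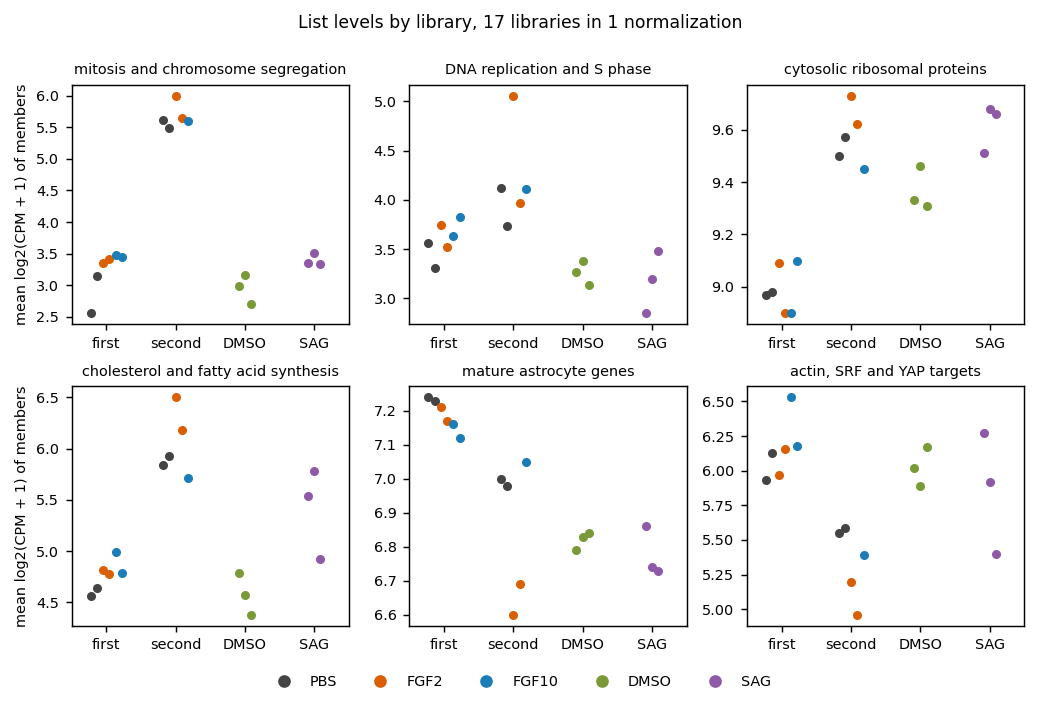
Mean log2(CPM + 1) over the genes of 6 lists in each of the 17 libraries, normalized together, by group and set. The mitosis list is at 2.56 to 3.48 in the first set, 5.49 to 6.00 in the second, 2.7 to 3.16 in DMSO and 3.33 to 3.51 in SAG.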

How the data were processed

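Astrocytes from 17 cultures were profiled by QuantSeq 3′ mRNA sequencing, and the 11 libraries of the FGF experiment were analyzed here. The authors deposited whole-number read counts per gene for all 17 libraries in 1 table, without normalization. The submitters' processing notes name STAR, the GRCm38 build and DESeq2. The annotation, strand setting, handling of duplicate reads or molecular identifiers and of reads with several matches are not given in the sources used here. No column of the authors' own comparisons was used, every value column was matched to a sample, and 0 were unmatched. Spike-in reads (114 entries, at most 15 counts in a library) were left out. Columns labeled Shh were taken as the SAG libraries, with no replicate numbers.

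The fits were run with edgeR 4.0.16 under R 4.3.3, with DESeq2 1.42.0 and limma 3.58.1 as alternatives, and tables and figures were made with Python 3.11.15, pandas 2.3.3, scipy 1.17.1 and matplotlib 3.10.9. Genes were kept by filterByExpr over treatment and set (minimum count 10, minimum total 15), which is lenient because FGF10 in the second set is 1 library. Library sizes were normalized by TMM. The quasi-likelihood fit used treatment and set, with their interaction in a further fit, and Benjamini-Hochberg adjustment ran over 18433 genes. Standard errors were taken from the F statistic, and CPM are TMM-normalized. In the fit of treatment and set, the prior degrees of freedom were finite for 0 genes. Each gene's spread was thus set by the trend over genes. The standard errors and p of that fit do not measure the replicate scatter of single genes. For the fit with the interaction this was not recorded. The biological coefficient of variation was 150% with treatment alone, 137% with the set added and 127% with the interaction. The floor was 3 counts per library, and floors cover counting error only. Library measures were compared by two-sided exact permutation over 462 splits.

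Total counts ran from 17481727 to 55550088, and the zeros among genes at 5 to 10 CPM limit the precision of low genes. No pair of replicates agreed within sampling noise (chi-square per degree of freedom 149 to 277). The members, the 38 gene lists and the tests were chosen with earlier results of these data known, so called list counts are not independent support. Genes named are up to 12 higher and 12 lower genes with the smallest p among called genes without overlap, up to 4 called members of each list in its direction and 2 in the other, 45 anchor genes, the leading interaction genes and markers of other cell types. *Ncapd2*, *Sox2*, *Dst*, *Dbx2*, *Car8*, *Cyp1b1*, *Slc17a7* and *Neurod6* fall outside that rule and were named after their values were seen, for a promoter, a small count or a threshold. Promoters came from RefSeq on GRCm38.p6, 250 bases before the first listed start of each symbol. Alternatives were DESeq2's size factors, other filters, DESeq2's Wald test, the study's threshold (adjusted p under 0.01 and above 1 on the log2 scale), fits by treatment, fits without the treatment or the set term, the replicate number as a block, and each library left out in turn. limma voom, fits to 4 libraries of a set and a filter on a median of at least 10 counts in each PBS and FGF2 group were added after seeing the data. The fits were tested on simulated data. The single-nucleus, imaging and transplantation experiments of the study were not analysed here, and a few genes are not reported here.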

Additional observations from a re-analysis of the deposited data

Results flagged for a closer look

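Among 86 groups of libraries checked, 8 held a library whose gap to its neighbor exceeded Dixon's 95% critical value, and chance gives about 1 in 20. PBS replicate 1 was the lowest library of the first set for the mitosis list (gap over range 0.641), the reactive astrocyte list (0.717) and the NRF2 and glutathione list (0.738), and it had the highest share of genes at 5 to 10 CPM without a read (0.664). PBS replicate 4 was the lowest of the second set for glycolysis (0.859), and FGF10 replicate 2 the lowest of the first set for interferon-induced genes (0.746). FGF2 replicate 3 was the highest of the second set for interferon-induced genes (0.897), with a mean level of 3.42 against 1.87 to 2.03 on the log2(CPM + 1) scale, and for endoplasmic reticulum chaperones (0.722).

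The effect of FGF2 differed between the sets for 25 genes by edgeR's interaction test, which called 16 genes for FGF10. For FGF2 the adjusted p was 6.62e-31 for *Mbp*, 9.58e-11 for *Phkg1*, 9.17e-08 for *Ccn2*, 0.000171 for *Plk1*, 0.00459 for *Gja1*, 0.0101 for *Gfap*, 0.0114 for *Gad2*, 0.0251 for *Clu* and 0.0435 for *Fxyd1* (edgeR). *Gad2* was at 28.7 and 29.9 CPM in PBS and 40.3 and 29.9 CPM in FGF2 in the first set, and in the second at 3.94 and 0 CPM in PBS and 0 in both FGF2 libraries. Second-set values of *Gad2* and *Ccn2* lie below 10 CPM, where zeros are too common for an absence to be read. For FGF10 it was 0.0011 for *Ammecr1l*, 0.0011 for *Wnk2*, 0.00124 for *Armc8* and 0.0213 for *Plk1* (edgeR), each from 1 FGF10 library in the second set, which is assumed to vary like the other groups.

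Spike-in sequences, which no comparison used, had up to 15 counts, in FGF2 replicate 1, where PBS libraries had at most 3.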

How the results depend on the processing

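Of the list medians under other settings, 640 moved by less than the spread between replicates and 82 by more, and 86 medians in 20 of the 38 lists changed sign. Those lists had medians of at most 0.57 in size, and among them interferon-induced genes went to −0.28 without FGF2 replicate 3, immediate early genes to 0.52 and hypoxia targets to 0.12 without FGF2 replicate 2, matrix genes to −0.29 without PBS replicate 4, and G1 genes to −0.17 and kinase inhibitors to −0.24 in FGF10 libraries alone. Of the values of the genes leading by p and the anchor genes, 805 kept direction and call, 20 lost the call, 3 gained it and 12 changed sign. The other named genes were not in this count. Another scaling moved the median of all genes by at most 0.02, and leaving out PBS replicate 3 took it to −0.11.

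The count of genes between the sets was 347 at the study's threshold (169 higher, 178 lower), 3135 by DESeq2's Wald test (1279 and 1856), 11 in PBS libraries alone (7 and 4), 24 in FGF2 (11 and 13), 162 in FGF10 (53 and 109) and 390 in PBS and FGF2 (238 and 152). Leaving out each library gave 458 to 808 (264 to 450 higher and 194 to 365 lower), and without FGF10 replicate 3 the 458 held 446 of the 834. List medians were 2.02 for mitosis in FGF10 alone, 1.00 for DNA replication and −0.44 for mature astrocyte genes in FGF2 alone, 1.40 and 0.76 for cholesterol and fatty acids and 0.72 and 0.36 for ribosomal proteins in FGF2 and FGF10 alone. *Cdkn1a* became −0.03 with DESeq2's size factors, −0.01 with a mean of at least 10 counts and −0.20 to 0.26 when libraries were left out. *Mcm2* ran from −0.19 to 0.60, *S100b* from −0.40 to 0.55 and the *Cyp1b1* interaction from −12.32 to 0.58. For library totals the higher set changed in 5 such fits, with an exact permutation p of 0.532 to 0.968.

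With the set as a term, FGF2 called 1 gene and FGF10 called 2. At the study's threshold these became 0 and 0, without a set term 0 and 0, with no filter 1 and 0, with DESeq2 1366 and 1390, with limma voom 14 and 31, and with libraries left out 0 to 8 and 0 to 4. With the replicate block in place of the set term edgeR called 0 and 0 (568 and 455 genes at an unadjusted p under 0.05). Deviations of same-numbered libraries from their treatment means correlated at 0.033 to 0.099, and labels give no shared source. Libraries with different numbers were not compared in this way, so whether the numbers pair the samples was not settled.

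The FGF2 interaction count of 25 became 14 at the study's threshold, 5 with PBS and FGF2 libraries only, 922 with DESeq2, 38 with limma voom, 5 with a median of at least 10 counts per group and 8 to 203 with libraries left out. The FGF10 count of 16 became 7, 910 with DESeq2 and 13 to 163. FGF2 within the second set called 60, with 36 under the median filter, 0 in its 4 libraries (664 at an unadjusted p under 0.05) and 15 to 110 with libraries left out. Within the first set it called 6, with 0 in its 4 libraries (406) and 1 to 206. The cause of these changes was not tested. Genes below about 10 CPM have too many zeros for their absence to be read, and FGF10 in the second set has no replicate.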

Other observations

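In the SAG experiment the mean level of cytosolic ribosomal protein genes on the log2(CPM + 1) scale was 9.31 to 9.46 in DMSO and 9.51 to 9.68 in SAG libraries. For mature astrocyte genes it was 6.79 to 6.84 and 6.73 to 6.86, where the second set of the FGF experiment was at 6.60 to 7.05. *Id4* was at 407 to 509 CPM in DMSO and 126 to 183 CPM in SAG. These are levels in other cultures of another age, with no test.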
